A study of Mus musculus with 4 samples.

Results

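The insulin-like growth factor (IGF) axis was followed in NIH 3T3 cells, a mouse embryonic fibroblast line, in which selenoprotein T had been targeted by RNA interference. The axis was taken as 10 genes: the ligands Igf2 and Igf1, the receptors Igf1r and Igf2r, and the binding proteins Igfbp2, Igfbp3, Igfbp4, Igfbp5, Igfbp6 and Igfbp7. The genes were chosen by name, and Igf2 was selected on its measured ratios, which lay on opposite sides of 0 with the 2 constructs. The values of Igf2 are therefore a description with no test. Of the 10 genes, 9 had a probe and 7 had a probe with a value on all 4 arrays, against 12347 named genes and 4754 genes tested in all. The question addressed was whether the other ligand, the receptors and the binding proteins differed between the constructs as Igf2 did.

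Cells carried pU6-m3 with an siRNA insert against Selt, now named Selenot. The insert siSelT-1 covers nucleotides 205 to 224 of the mRNA, the insert siSelT-5 covers nucleotides 971 to 989, and the control cells carried empty pU6-m3. All lines, controls included, were stably selected with 150 µg/ml hygromycin B and grown in 10% serum with 100 nM sodium selenite. Each construct was measured on 2 two-colour arrays of separate cultures collected at different times, with knockdown RNA in Cy5 and vector RNA in Cy3. Whether a construct was 1 clone or a pool is not given in the sources used here. Selenot itself had no named probe, so the depth of the knockdown was not analysed here.

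Values are log2 ratios of construct over vector. The base of the logarithm and the direction of the ratio are not stated in the sources used here, and every fold and direction below rests on this reading. Dyes were not swapped, so a gene's dye bias enters each ratio against vector. The bias drops out of the contrast of siSelT-1 with siSelT-5 only if it was equal on both sets of arrays, which was not tested. Values numbered 7689 and 9232 per siSelT-1 array, against 20268 and 18361 per siSelT-5 array. On the 7038 probes that all 4 arrays share, the mean of the array medians was 0.14 for siSelT-1, against 0.39 for siSelT-5. Values called centred are taken from each array's own median of these shared probes. Of the 13017 probes with values on siSelT-5 arrays alone, 86.9% had a mean below 0, with a median of -0.86.

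IGF1 and IGF2 are secreted peptides that signal for growth and survival through the receptor tyrosine kinase IGF1R. IGF2R, the cation-independent mannose 6-phosphate receptor, takes up IGF2 and delivers it to lysosomes. The IGF binding proteins hold the ligands outside the cell and regulate their access to the receptor. In mice Igf2 is imprinted and expressed from the paternal allele, Igf2r from the maternal allele. Cultured fibroblasts such as 3T3 cells respond to IGFs as progression factors of the cell cycle.

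Promoter windows are shown for the 3 axis genes with the largest ratios among those measured on all 4 arrays. They run from 250 bases before to 50 after a start and come from RefSeq on GRCm38.p6, which held 14 windows for the 10 genes and 4 for Igf2. Of these 4 the one with the most motif matches is shown, and the start from which the cells transcribed Igf2 was not measured. Capitals mark GGGCGG (the GC box), TATAAA (the TATA box), CCAAT or TGANTCA (the AP-1 site), searched on both strands with no match overlapping another. Of all 32851 windows of that length, 35.7% held GGGCGG, 13.6% TATAAA, 37.4% CCAAT and 7.81% TGANTCA. The Igf2 window lies on the minus strand at chr7:142657447-142657746, the Igf1 window on the plus strand at chr10:87860861-87861160 and the Igfbp4 window on the plus strand at chr11:99040994-99041293.
Igf2: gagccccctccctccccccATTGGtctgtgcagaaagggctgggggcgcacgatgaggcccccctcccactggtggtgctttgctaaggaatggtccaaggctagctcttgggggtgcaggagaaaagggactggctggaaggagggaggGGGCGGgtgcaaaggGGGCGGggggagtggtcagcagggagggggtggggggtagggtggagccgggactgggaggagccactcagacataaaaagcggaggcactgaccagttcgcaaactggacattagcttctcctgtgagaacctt
Igf1: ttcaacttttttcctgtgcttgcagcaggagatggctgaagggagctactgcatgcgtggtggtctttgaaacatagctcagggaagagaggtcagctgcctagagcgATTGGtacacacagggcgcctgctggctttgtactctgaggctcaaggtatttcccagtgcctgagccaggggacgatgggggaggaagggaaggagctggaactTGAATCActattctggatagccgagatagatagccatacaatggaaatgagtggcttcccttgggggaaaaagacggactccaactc
Igfbp4: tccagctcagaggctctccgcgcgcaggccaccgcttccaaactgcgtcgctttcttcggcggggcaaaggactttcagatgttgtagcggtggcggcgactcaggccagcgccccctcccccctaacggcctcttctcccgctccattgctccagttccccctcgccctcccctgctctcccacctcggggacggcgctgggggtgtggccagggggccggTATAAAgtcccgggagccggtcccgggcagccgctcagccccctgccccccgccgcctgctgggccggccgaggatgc
The Igf2 window held 2 GC boxes and 1 CCAAT on the reverse strand. The Igf1 window held 1 CCAAT on the reverse strand and 1 AP-1 match, and the Igfbp4 window held 1 TATA box at position -28 from the start. CCAAT was found in the Igf2 and Igf1 windows, and no motif was found in all 3. A match is a description of these letters only.

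Igf2 (Entrez 16002, chromosome 7, 142650768 to 142666816 on GRCm38.p6) had 1 probe. Its ratios were -1.64 and -1.43 on the siSelT-1 arrays, against 1.07 and 0.96 on the siSelT-5 arrays. Both siSelT-1 arrays lay far below 0 and both siSelT-5 arrays above it, so the constructs did not overlap. The mean was -1.53 ± 0.15 for siSelT-1, against 1.01 ± 0.07 for siSelT-5 (SD, n = 2 each), which is 2.89-fold lower and 2.02-fold higher than vector. Centred on the shared probes, the means were -1.67 and 0.62, so the siSelT-5 value was 1.54-fold higher than the typical shared probe. Igf2 ranked as the 4th lowest of the 4754 genes for siSelT-1 and the 424th highest for siSelT-5. The difference, siSelT-1 minus siSelT-5, was -2.55 as deposited and -2.29 centred, the lowest of all genes tested on the deposited scale. In RNA of whole cultures, fewer cells that express a gene and less RNA per cell cannot be told apart. Acta2, the smooth muscle actin gene and a muscle marker, also lay below 0 with siSelT-1 and above 0 with siSelT-5. That pattern was shown by 9.51% of all genes. The Acta2 probes read -0.71 and -0.62, and -0.09 and -0.29, on the siSelT-1 arrays, against 1.06 and 0.47, and 0.68 and 0.51, on the siSelT-5 arrays. Des, the other tested muscle marker, read 0.34 and -0.04 on the siSelT-1 arrays, against 0.82 and 0.65 on the siSelT-5 arrays. Myog, a muscle marker with no siSelT-1 value, read -1.68 and -0.77 on the siSelT-5 arrays. The fibroblast marker Postn had the same pattern as Acta2, at -0.75 and -0.82 on the siSelT-1 arrays, against 1.72 and 1.55. The part of muscle or fibroblast markers in the Igf2 values was not tested.

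**Figure D1:**
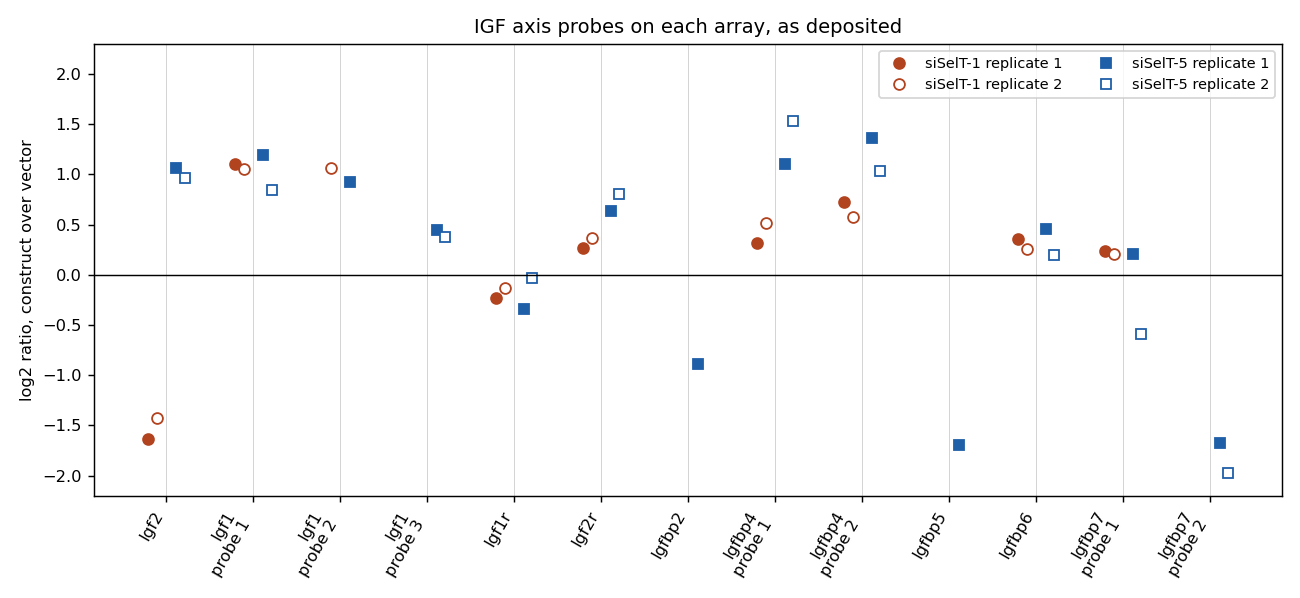
Log2 ratio of construct over vector (vertical axis) for each of the 13 IGF axis probes on each array, with siSelT-1 as circles, siSelT-5 as squares, replicate 1 filled and replicate 2 open. Igf2 is the only gene with siSelT-1 values near -1.5 and siSelT-5 values near 1, and 4 probes have no siSelT-1 value.

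Igf1 encodes the other ligand and was higher than vector with both constructs. The probe measured on all 4 arrays read 1.10 and 1.05 on the siSelT-1 arrays, against 1.19 and 0.85 on the siSelT-5 arrays. All 4 values were close to 1 and the constructs overlapped. The mean was 1.08 ± 0.04 for siSelT-1, against 1.02 ± 0.24 for siSelT-5 (SD, n = 2 each), a 2.11-fold and a 2.03-fold rise. Both passed limma's test over all genes (adjusted p = 0.0241 for siSelT-1, against 0.00265 for siSelT-5), and both passed when centred, at 0.94 and 0.63 (adjusted p = 0.0299 and 0.0145). The difference between the constructs was 0.057, with a 95% interval of -0.39 to 0.51 (limma adjusted p = 0.839). A second Igf1 probe read 1.06 on siSelT-1 replicate 2 and 0.93 on siSelT-5 replicate 1. The third Igf1 probe gave 0.45 and 0.37 on the siSelT-5 arrays and no value with siSelT-1, lower than those of the other probes. The ligands had the same sign with siSelT-5, where Igf2 and Igf1 averaged 1.01 and 1.02, and had opposite signs with siSelT-1.

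Igf1r encodes the signalling receptor and showed small ratios. It read -0.24 and -0.13 on the siSelT-1 arrays, against -0.35 and -0.03 on the siSelT-5 arrays. All 4 values were below 0 and the constructs overlapped. The means, -0.18 ± 0.08 for siSelT-1, against -0.19 ± 0.22 for siSelT-5 (SD, n = 2 each), did not pass (limma adjusted p = 0.348 and 0.247). Centred, the siSelT-5 mean was -0.58 and passed (adjusted p = 0.0254), while the siSelT-1 mean of -0.32 did not (adjusted p = 0.171). The difference between the constructs was 0.0074, with a 95% interval of -0.44 to 0.45 (adjusted p = 0.979).

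Igf2r encodes the receptor that clears IGF2. It read 0.27 and 0.36 on the siSelT-1 arrays, against 0.63 and 0.80 on the siSelT-5 arrays. Both siSelT-5 values lay above both siSelT-1 values, and all 4 were above 0. The mean was 0.32 ± 0.07 for siSelT-1, which did not pass (limma adjusted p = 0.112), and 0.72 ± 0.12 for siSelT-5, a 1.65-fold rise that passed (SD, n = 2 each; adjusted p = 0.00457). The siSelT-5 call was lost when arrays were centred, at 0.33 (adjusted p = 0.0772). The difference between the constructs was -0.40, with an unadjusted 95% interval of -0.80 to -0.0040, and did not pass (adjusted p = 0.138). Centred, it was -0.15.

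Igfbp4 encodes a secreted binding protein known mainly as an inhibitor of IGF action. It rose with both constructs. Its first probe read 0.32 and 0.52 on the siSelT-1 arrays, against 1.11 and 1.53 on the siSelT-5 arrays. Its second probe read 0.73 and 0.57 on the siSelT-1 arrays, against 1.37 and 1.04 on the siSelT-5 arrays. On both probes the siSelT-5 arrays lay above the siSelT-1 arrays, but the probes ordered the replicates of each construct oppositely. The SD of the mean of the probes, 0.02 for siSelT-1, against 0.03 for siSelT-5, is therefore smaller than that of either probe. The gene averaged 0.53 for siSelT-1 (1.45-fold higher, limma adjusted p = 0.0374) and 1.26 for siSelT-5 (2.40-fold higher, adjusted p = 0.00202; n = 2 arrays each). When arrays were centred, the siSelT-1 mean was 0.39 and no longer passed (adjusted p = 0.0703), and the siSelT-5 mean was 0.87 and passed (adjusted p = 0.00707). On the first probe alone the siSelT-1 mean of 0.42 did not pass (limma adjusted p = 0.113). On the second alone it was 0.65 and passed (adjusted p = 0.0415). The difference between the constructs was -0.73, with a 95% interval of -1.10 to -0.35, just outside the threshold (adjusted p = 0.0546). Centred, it was -0.47 (adjusted p = 0.136). The difference was -0.90 on the first probe alone and -0.55 on the second, and neither passed (limma adjusted p = 0.0583 and 0.104).

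Igfbp6 encodes a binding protein that prefers IGF2 over IGF1. It read 0.35 and 0.26 on the siSelT-1 arrays, against 0.45 and 0.20 on the siSelT-5 arrays. The constructs overlapped and all values were above 0. Neither mean passed, at 0.31 ± 0.07 for siSelT-1, against 0.33 ± 0.18 for siSelT-5 (SD, n = 2 each; limma adjusted p = 0.136 and 0.064). Over both constructs together the mean of 0.32 passed (adjusted p = 0.0246), but centred it was 0.050 (adjusted p = 0.611). The difference was -0.019, with a 95% interval of -0.44 to 0.40 (adjusted p = 0.945).

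Igfbp7 encodes a related secreted protein that binds IGFs with low affinity. Its first probe read 0.24 and 0.20 on the siSelT-1 arrays, against 0.20 and -0.59 on the siSelT-5 arrays. The siSelT-5 arrays disagreed in sign, and the higher of them lay level with the lower siSelT-1 array. The means, 0.22 ± 0.02 for siSelT-1, against -0.19 ± 0.56 for siSelT-5 (SD, n = 2 each), did not pass (limma adjusted p = 0.471 and 0.444). The difference was 0.41, with a 95% interval of -0.28 to 1.11 (adjusted p = 0.335). With siSelT-5 replicate 1 left out it was 0.81 and passed, so 1 array decided the call. The second Igfbp7 probe gave -1.67 and -1.97 with siSelT-5 and no value with siSelT-1.

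The remaining binding proteins could not be compared between the constructs. Igfbp2, a serum carrier, and Igfbp5, which also binds extracellular matrix, each had a value on siSelT-5 replicate 1 alone, -0.89 and -1.70. Among the probes with no siSelT-1 value, 45.8% read below Igfbp2 and 14.6% below Igfbp5 on that array. The second Igfbp7 probe had 15.3% and 5.16% of such probes below it on the siSelT-5 arrays. Most of these probes lay below 0, so a negative ratio there is common. Igfbp3, the main carrier of IGFs in serum, had no probe with its name.

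With Igf2 left out, 2 of the 6 tested axis genes were called for siSelT-1 at an adjusted p under 0.05 (Igf1 and Igfbp4), both higher. Of all genes 13.7% were called, 10.3% higher and 3.37% lower. With either siSelT-1 array left out, 0 genes were called for siSelT-1, and with either siSelT-5 array left out, 4 of the 6 axis genes and 2089 of all genes were. For siSelT-5, 3 of 6 were called (Igf1, Igf2r and Igfbp4), all higher, against 53.9% of all genes, 47.6% higher and 6.29% lower. This share is close to that of all genes. Centred, the calls were Igf1 alone for siSelT-1, against 8.9% of all genes, and Igf1, Igf1r and Igfbp4 for siSelT-5, against 39.2%. For both constructs together 4 of 6 were called, again all higher, against 53.7% (45.7% higher and 8.04% lower). Centred, 3 of 6 were, against 42.4%. The median of the 6 genes was 0.31 for siSelT-1, 0.52 for siSelT-5 and -0.0058 for the difference, beside 0.14, 0.37 and -0.26 over all genes.

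In the direct comparison, siSelT-1 minus siSelT-5, limma called 0 of the 6 genes, on the deposited and on the centred scale alike. The background was 3 of 4754 genes, or 0.0631%, of which 0.0421% were lower and 0.021% higher. At an unadjusted p under 0.05 there were 1697 genes and 2 axis genes, Igf2r and Igfbp4. The smallest adjusted p of the 6 was that of Igfbp4. The siSelT-5 arrays bore on this count: limma called Igfbp4 with either of them left out (adjusted p = 0.0104 and 0.0144). Without siSelT-5 replicate 1 it called Igf2r and Igfbp7 as well. The count over all genes then was 1796 without siSelT-5 replicate 1 and 1789 without replicate 2, so calls were common at those settings. The array left alone in its group was there assumed to vary like the other group. Over the 6 genes the lowest bound of a 95% interval was -1.10, for Igfbp4, and the highest 1.11, for Igfbp7.

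**Figure D2:**
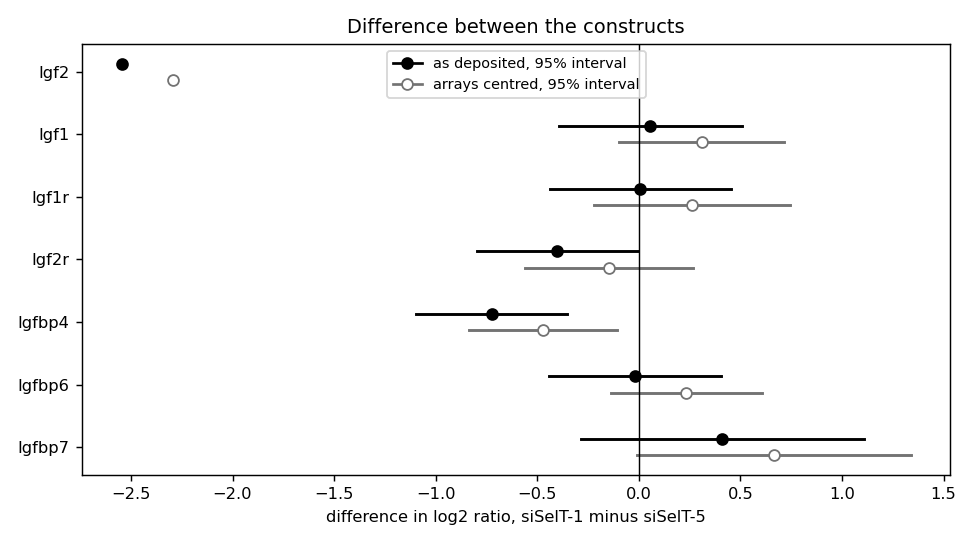
Difference in log2 ratio, siSelT-1 minus siSelT-5 (horizontal axis), for the 7 measured IGF axis genes, with filled points as deposited and open points after centring. Bars are 95% intervals from limma, drawn for the 6 genes tested, and Igf2 at -2.55 has none because its values chose it.

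Signs and orders over the arrays were counted as well. Both siSelT-1 arrays lay below both siSelT-5 arrays for Igf2r and Igfbp4, as they did for 52.6% of all genes, and for Igfbp4 alone after centring, against 32%. They lay above for Igfbp7, against 11.9%, but the nearest arrays were level, at 0.2045 for siSelT-1 and 0.2034 for siSelT-5. After centring they lay above for Igf1, Igfbp6 and Igfbp7, against 28.3%. All 4 values were above 0 for Igf1, Igf2r, Igfbp4 and Igfbp6, against 44.9% of all genes, and below 0 for Igf1r, against 8.6%. Of the 7 axis genes, only Igf2 was below 0 on both siSelT-1 arrays and above 0 on both siSelT-5 arrays. Its values fixed that pattern, which 9.51% of all genes showed, or 6.73% after centring.

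**Figure D3:**
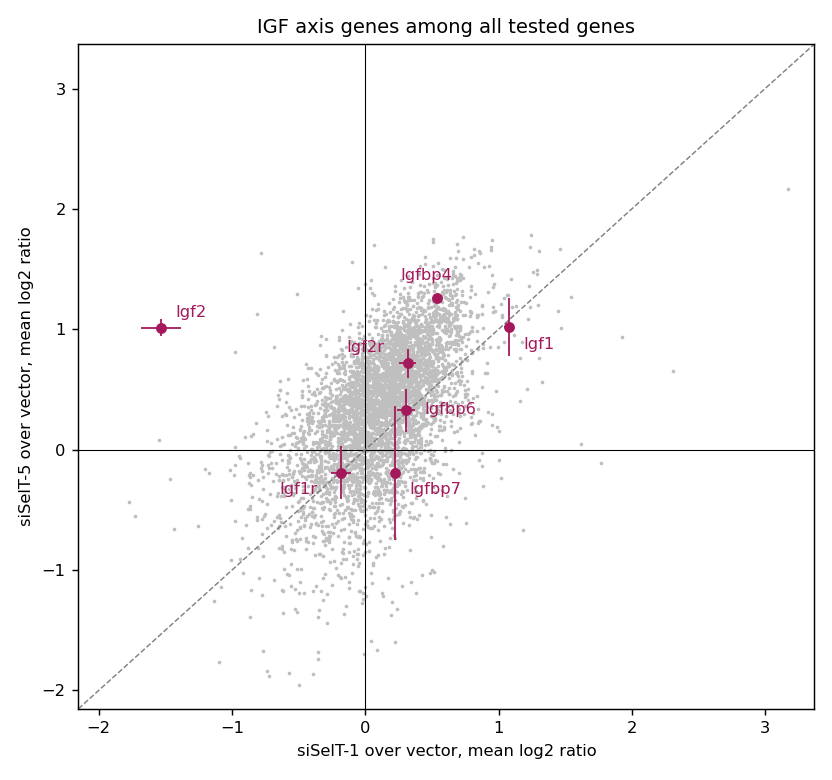
Mean log2 ratio of siSelT-1 over vector (horizontal) against that of siSelT-5 over vector (vertical) for the 4754 genes tested (grey), with the IGF axis genes in colour and bars of 1 SD (n = 2 arrays each). Both axes are ratios to vector cells. Igf2 stands at -1.53 and 1.01, apart from the other 6 axis genes.

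The genes whose pattern lay nearest to Igf2 were taken by Euclidean distance over the 4 arrays, in log2 units, and are given with no test. They were Tmem242 (0.833), A630052E07Rik (1.06), Postn (1.39), B230206H07Rik (1.40), Plaat3 (1.41), Eed (1.47), Impact (1.50) and Dctn3 (1.51). The median distance of all genes was 2.65. Centring shifts all genes of an array alike and so leaves these distances as they are. Tmem242 read -1.05 and -0.91 on the siSelT-1 arrays, against 0.84 and 0.78 on the siSelT-5 arrays. Postn, which encodes the matrix protein periostin, averaged -0.78 ± 0.05 for siSelT-1, against 1.64 ± 0.12 for siSelT-5 (SD, n = 2 each). Of the 8 genes, 7 were negative on both siSelT-1 arrays and positive on both siSelT-5 arrays. B230206H07Rik differed, at -0.05 and 0.20 on the siSelT-5 arrays. None of the 8 was an axis gene. The nearest axis gene, Igf1r, was 1977th at a distance of 2.58, and Igf1 was 4652nd at 3.70.

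**Figure D4:**
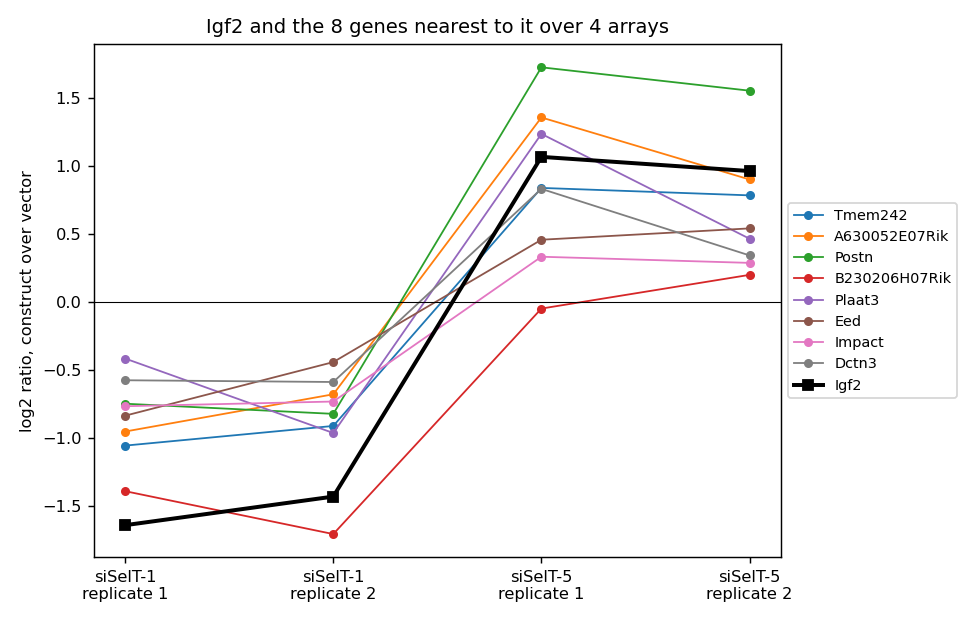
Log2 ratio of construct over vector (vertical axis) on each of the 4 arrays for Igf2 (black) and the 8 genes nearest to it. Lines join the values of 1 gene. Of the 8 genes, 7 lie below 0 on both siSelT-1 arrays and above 0 on both siSelT-5 arrays.

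The other components of the axis, such as proteases that cleave binding proteins and RNA-binding proteins of the Igf2 mRNA, numbered 24, of which 14 had a probe and 7 were tested. For siSelT-1, 2 rose (Adamts1 and Mmp14) and 0 fell, against 13.7% of all genes called. For siSelT-5, 3 rose (Adam9, Adamts1 and Mmp14) and 0 fell, against 53.9% of all genes called, while 0 were called between the constructs. Centred, 1 rose (Adamts1) for siSelT-1, against 8.9% of all genes called either way. For siSelT-5, centred, 2 rose (Adam9 and Adamts1) and 2 fell (Igf2bp3 and Plat), where 19.2% and 20% of all genes did. The 2 Igf2bp3 probes had opposite signs on the siSelT-5 arrays as deposited, at -0.51 and -0.28, and 0.22 and 0.15. Centred, they read -0.93 and -0.64, and -0.21 and -0.21. The median of the 7 was 0.29 for siSelT-1, against 0.27 for siSelT-5, beside 0.14 and 0.37 over all genes. Adamts1, a secreted metalloprotease, read 0.64 and 0.59 on the siSelT-1 arrays, against 1.13 and 1.15 on the siSelT-5 arrays (limma adjusted p = 0.0334 and 0.00202 against vector). A further Adamts1 probe, with no siSelT-1 value, read 0.95 and -0.09 on the siSelT-5 arrays. Adam9, a membrane metalloprotease, averaged 0.29 ± 0.11 for siSelT-1, against 1.03 ± 0.16 for siSelT-5 (SD, n = 2 each), and passed for siSelT-5 (adjusted p = 0.0024). Mmp14, a membrane-bound matrix metalloprotease, averaged 0.57 and 0.45 and passed for both constructs (adjusted p = 0.04 and 0.0232), but for neither when centred (adjusted p = 0.061 and 0.654). Plat, tissue plasminogen activator, read 0.24 and 0.29 on the siSelT-1 arrays, against -0.01 and -0.04 on the siSelT-5 arrays, and Adam12 averaged 0.01 and 0.27. Neither passed on the deposited scale. Insr, the insulin receptor, read -0.68 and -0.79 with siSelT-5 and had no value with siSelT-1. Pappa, the protease of IGFBP4, had no probe with its name.

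Of 55 genes of insulin and IGF signalling downstream of the receptors, 41 had a probe and 28 were tested. For siSelT-1, 2 rose (Pik3r1 and Map2k2) and 1 fell (Pik3ca), against 13.7% of all genes called. For siSelT-5, 13 rose and 3 fell (Irs1, Pik3ca and Foxo3), a share near the 53.9% of all genes called. The 2 Irs1 probes read -0.43 and 0.28, and -0.20 and -1.06, on the siSelT-5 arrays. The Foxo3 probe on all 4 arrays read -0.42 and -0.83 there. The other Foxo3 probes, with no siSelT-1 value, read 0.34 and 0.52, and 0.59 and -0.43. Centred, 4 rose (Grb2, Pik3r1, Akt1 and Eif4ebp1) and 5 fell for siSelT-5, against 19.2% and 20% of all genes. The median of the 28 genes was 0.12 for siSelT-1, against 0.40 for siSelT-5, close to the 0.14 and 0.37 of all genes. No member was called between the constructs at an adjusted p under 0.05.

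Of the phosphoinositide 3-kinase subunits, Pik3r1 and Pik3ca were called in opposite directions with both constructs. Pik3r1, a regulatory subunit, read 0.90 and 0.61 on the siSelT-1 arrays, against 1.17 and 1.28 on the siSelT-5 arrays, and rose with both (limma adjusted p = 0.0323 and 0.0021). Pik3ca, a catalytic subunit, read -0.46 and -0.66 on the siSelT-1 arrays, against -0.86 and -1.04 on the siSelT-5 arrays, and fell with both (adjusted p = 0.0415 and 0.00267). Both genes kept their calls when arrays were centred. The second Pik3r1 probe, which had no siSelT-1 value, read -0.20 and -0.57 on the siSelT-5 arrays, opposite in sign to the first. Pik3r2, another regulatory subunit, read 0.40 and 0.57 on the siSelT-1 arrays, against 0.34 and 0.62 on the siSelT-5 arrays. Pik3cb, another catalytic subunit, had no siSelT-1 value and read -1.12 and -0.55 with siSelT-5. Akt1, the kinase downstream, averaged 0.09 ± 0.02 for siSelT-1, against 0.87 ± 0.05 for siSelT-5 (SD, n = 2 each), and passed for siSelT-5 alone (adjusted p = 0.586 and 0.00256). Tsc1, an inhibitor of mTORC1, averaged -0.26 ± 0.10 for siSelT-1, against 0.56 ± 0.09 for siSelT-5 (SD, n = 2 each), and passed for siSelT-5 (adjusted p = 0.0101) but not when centred (adjusted p = 0.277). The differences of Akt1 and Tsc1 between the constructs, -0.78 and -0.81, did not pass (adjusted p = 0.0546 for both). The adaptors Grb2 and Sos2 averaged 0.26 and 0.07 for siSelT-1 and 0.78 and 0.63 for siSelT-5, with differences of -0.52 and -0.57 that did not pass (adjusted p = 0.0779 and 0.0959).

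**Figure D5:**
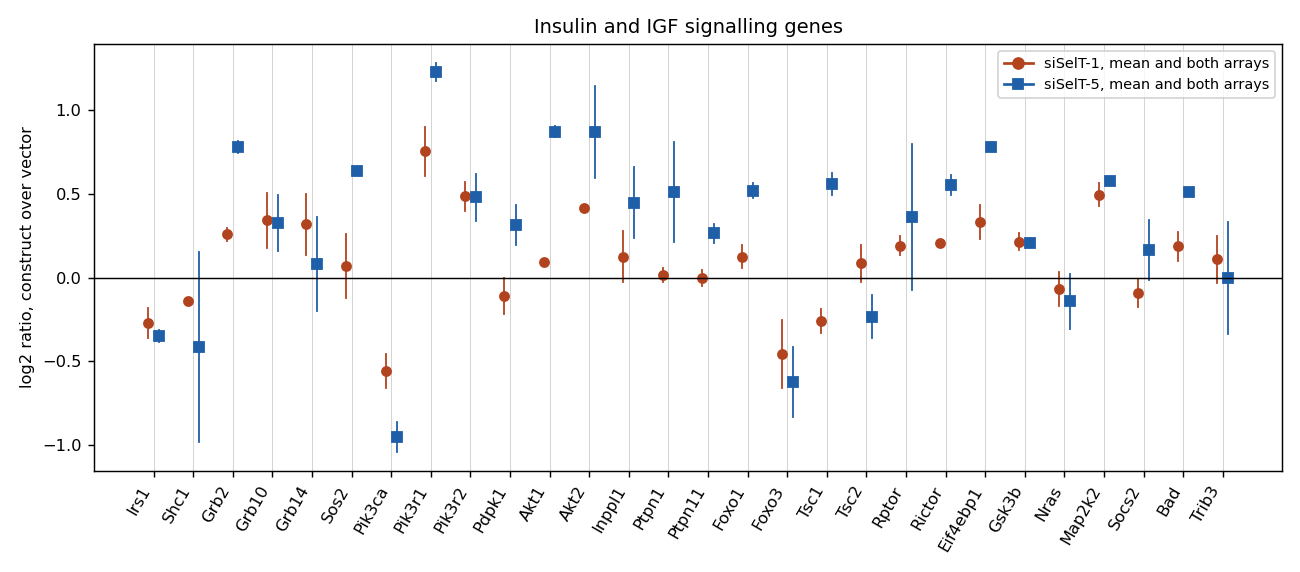
Log2 ratio of construct over vector (vertical axis) for the 28 tested genes of insulin and IGF signalling, with siSelT-1 as circles and siSelT-5 as squares. Points are means and bars reach the 2 arrays of each construct. Pik3ca lies below 0 and Pik3r1 above 0 with both constructs.

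Igf2 lies in an imprinted domain next to H19, a noncoding RNA expressed from the maternal allele. H19 had a value on siSelT-5 replicate 1 alone, -1.43, so the pair could not be compared. Of 25 listed genes around Igf2, 19 had a probe and 6 besides Igf2 were tested. For siSelT-1, 0 were called, and for siSelT-5, 2 rose (Nap1l4 and Mrpl23), where 47.6% of all genes rose. Centred, Nap1l4 alone passed for siSelT-5, where 19.2% of all genes rose. Nap1l4, a nucleosome assembly gene, averaged 0.16 ± 0.07 for siSelT-1, against 0.91 ± 0.04 for siSelT-5 (SD, n = 2 each), with a difference of -0.75 that did not pass (limma adjusted p = 0.0546). Another Nap1l4 probe had a value on siSelT-5 replicate 1 alone, -1.48, opposite in sign to the probe used. Mrpl23, a mitochondrial ribosomal protein gene, averaged 0.41 and 0.71, and Tspan32 0.34 and 0.44. A second Tspan32 probe read 0.51 on siSelT-1 replicate 1 and -0.93 on siSelT-5 replicate 1. Cars, a cysteinyl-tRNA synthetase gene, read 0.38 and -0.34 on the siSelT-1 arrays, against 0.34 and -0.87 on the siSelT-5 arrays, a spread between replicates wider than the difference of 0.28 between the constructs.

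Of 41 imprinted genes, 28 had a probe and 7 besides Igf2 were tested. For siSelT-1, 2 fell (Dcn and Impact) and 0 rose, where 3.37% of all genes fell. For siSelT-5, 1 rose (Igf2r) and 0 fell, where 47.6% of all genes rose. Centred, 2 fell again for siSelT-1 (Dcn and Impact), against 8.9% of all genes called either way. For siSelT-5, centred, 0 rose and 1 fell (Gnas), where 19.2% and 20% of all genes did. Dcn, which encodes the matrix proteoglycan decorin, read -0.88 and -0.84 on the siSelT-1 arrays, against 0.21 and 0.02 on the siSelT-5 arrays. Of its 3 probes on all 4 arrays, 1 stayed below 0 with siSelT-5, at -0.10 and -0.44. Impact, a regulator of the eIF2 kinase GCN2, read -0.76 and -0.73 on the siSelT-1 arrays, against 0.33 and 0.29 on the siSelT-5 arrays. Its probes disagreed for siSelT-1, where the second alone gave 0.031. The difference of Dcn, -0.97, did not pass (limma adjusted p = 0.0543). That of Impact, -1.06, is given with no test, since its nearness to Igf2 chose it. Gnas and Copg2 averaged 0.23 and 0.28 for siSelT-1 and -0.33 and -0.47 for siSelT-5, and neither passed on the deposited scale. Centred, Gnas averaged -0.73 for siSelT-5 and passed (adjusted p = 0.0437).

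Ratio arrays give no level in the cells, so the fibroblast identity could be checked on the presence of values alone. All 12 fibroblast markers had a probe and 8 had values on all 4 arrays. Over the series, 4754 of 12347 named genes had such values. Some markers of other cell types had them too, so this check cannot name the cell type. For siSelT-1, 1 rose and 3 fell (Col3a1, Dcn and Postn), where 10.3% and 3.37% of all genes did. For siSelT-5, 4 rose and 1 fell, where 47.6% and 6.29% did. Centred, 0 rose and 3 fell for siSelT-1, against 8.9% of all genes called either way. Centred, 3 rose and 2 fell for siSelT-5, where 19.2% and 20% of all genes did. Postn was also named for its nearness to Igf2. Of the markers of other cell types, none of 6 epithelial genes, 2 of 6 muscle genes, 2 of 7 macrophage genes, 2 of 6 adipocyte genes, 3 of 7 bone and cartilage genes and 4 of 8 endothelial genes had values on all 4 arrays. Against the same shares of all genes, 3 of the 4 tested endothelial genes rose for siSelT-1 (median 0.63) and 4 for siSelT-5 (median 0.58), and centred 1 did for each construct (Pecam1 for siSelT-1, Cd34 for siSelT-5). Endothelial genes with no siSelT-1 value lay below 0: Tek read -1.35 and -1.09 on the siSelT-5 arrays, and Vwf -1.17 on siSelT-5 replicate 1. Both tested adipocyte genes, Lpl and Scd1, rose with both constructs as deposited, and Scd1 alone did when centred. Other adipocyte genes, measured on fewer arrays, lay below 0. Fabp4 read -1.61 and -1.14 on the siSelT-5 arrays, Pparg -3.04 on siSelT-5 replicate 1 and Plin1 -0.01 on siSelT-1 replicate 2. Most probes with values on siSelT-5 arrays alone lay below 0. The tested macrophage genes Lyz1 and Lyz2 were not called as deposited, and both fell for siSelT-5 when centred. Other macrophage genes, with no siSelT-1 value, were mixed. Cd68 read 0.20 and 0.61 and Itgam 0.66 and 0.43 on the siSelT-5 arrays, and Adgre1 -2.04 on siSelT-5 replicate 1. Acta2 and Des, the tested muscle genes, rose for siSelT-5 as deposited and not when centred, and Acta2 fell for siSelT-1 when centred alone. Of the bone and cartilage genes, 1 rose for siSelT-1 and 2 for siSelT-5 as deposited, and centred 1 rose for each construct and 1 fell for siSelT-5. The part of other cell types in the IGF axis values was not tested.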

How the data were processed

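The authors deposited 1 value per probe and array, per the labels for arrays that set Cy5 construct RNA against Cy3 vector RNA, read here as log2 ratios. RNA was extracted with Trizol and copied from oligo-dT, per the labels' protocols. Background correction, normalization and the filter on missing values are not given in the sources used here. The number of arrays limits the precision. The sources used here do not say if 1 vector RNA served several arrays, and the tests hold no spread between vector cultures.

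Of 22534 probes, 18129 carried 1 gene name, 140 several and 4265 none; 18041 were matched by Entrez identifier to the GRCm38.p6 annotation, which changed 0 symbols. A gene was the mean of its single-name probes with a value on all 4 arrays: 3796 genes had 1 such probe and 958 more. Ratios were fitted in R 4.3.3 with limma 3.58.1 (lmFit, eBayes) and statmod 1.5.0 as 2 group means, two-sided, with Benjamini-Hochberg adjustment over 4754 genes and calls at an adjusted p under 0.05. The fit was tested on simulated data. The root mean square SD was 0.16 for siSelT-1, against 0.35 for siSelT-5, while the fit assumes 1 spread for both.

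Members, lists and tests were chosen with earlier results of these data known. Named genes were all axis genes, the 8 nearest to Igf2 and, of each companion list, those called between the constructs or else up to 4 with the smallest p there, plus up to 4 called for either construct. Insr, Pappa, H19, Pik3r2, Pik3cb and the markers of other cell types, and the further genes given in brackets after counts, were named after their values were seen. Alternatives were centring, scaling, other estimates of the spread, array weights, single and unnamed probes, a looser filter, another threshold, a replicate block and leaving out each array.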

Additional observations from a re-analysis of the deposited data

Results flagged for a closer look

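On the deposited scale, several genes lay on opposite sides of 0 with the 2 constructs: every siSelT-1 array one way and every siSelT-5 array the other. Igf2 had the lowest difference, siSelT-1 minus siSelT-5, at -2.55. Among the genes nearest to it, the differences were -1.79 for Tmem242, -1.94 for A630052E07Rik, -2.42 for Postn, -1.54 for Plaat3, -1.14 for Eed and -1.17 for Dctn3. These 7 differences are a description, given with no p, since the genes were chosen by the same values.

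Impact (-1.06), an imprinted gene, was also among the nearest genes and is given with no p. Dcn (-0.97) among imprinted genes, Tsc1 (-0.81) among signalling genes and Plat (0.29) among the other components were likewise opposed in sign between the constructs. limma did not call these 3 differences (adjusted p = 0.0543 for Dcn, 0.0546 for Tsc1 and 0.221 for Plat). In each, all 4 arrays showed the direction on the deposited scale, though Plat read only -0.01 and -0.04 with siSelT-5. Centred, Tsc1 and Plat stayed opposed in sign, while Dcn and Impact lay below 0 on all 4 arrays. Of all genes 9.51% were below 0 on both siSelT-1 arrays and above 0 on both siSelT-5 arrays, or 6.73% after centring. Plat had the reverse order, for which no share was counted.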

How the results depend on the processing

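Over the alternatives Igf2 ran from -2.17 to -1.43 for siSelT-1 and from 0.51 to 1.22 for siSelT-5. Igf1 kept its direction against vector under each alternative. With 2 arrays a construct and no signal values, weak differences of the receptors and binding proteins could not be resolved.

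The replicate 1 minus replicate 2 differences of the 2 constructs correlated at 0.0758 across genes. Whether arrays with the same replicate number shared a batch or a vector RNA was not tested. With a replicate block the axis count for siSelT-1 was 0, in place of 2, and the other axis counts were not changed. Over all genes the block gave 35 calls in place of 650 for siSelT-1 and 0 in place of 3 for the difference.

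The siSelT-1 axis count was 1 under either centring, 1 with a value on 1 array of each construct sufficing, and 4 with array weights. With each array left out it ran from 0 to 4 for siSelT-1, from 3 to 5 for siSelT-5 (3 in the full fit), from 0 to 6 for both constructs (4 in full) and from 0 to 3 for the difference (0 in full). The high ends came without a siSelT-5 array, and the 0 came without a siSelT-1 array. Without siSelT-5 replicate 2, Igf1r and Igfbp6 joined the siSelT-5 calls, and without replicate 1 Igfbp7 did. The difference count was 2 (Igf2r and Igfbp4) when arrays were centred on all their values, and 1 at an adjusted p under 0.1. The medians of all values were 0.18 and 0.06 on the siSelT-1 arrays, against -0.22 and -0.19 on the siSelT-5 arrays. Taking them off lowers each siSelT-1 ratio and raises each siSelT-5 ratio, so this centring moves the difference of every gene downward alike. All-gene counts ran with each array left out from 0 to 2089 for siSelT-1, from 1623 to 3027 for siSelT-5, from 0 to 3190 for both constructs and from 0 to 1796 for the difference. Over all genes, siSelT-1 counts were 423 and 324 under the 2 centrings, 1588 with MAD scaling, 1920 with array weights, 67 with the looser filter and 1248 at an adjusted p under 0.1. siSelT-5 gave 1460 with MAD scaling. Difference counts were 2512 centred on all values, 15 with MAD scaling, 537 with a common spread, 279 with array weights and 1310 at an adjusted p under 0.1.

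Some small values changed sign. Centring takes the same number off all values of an array, and the cause of the other changes was not tested. For siSelT-5, centring on all values gave 0.020 for Igf1r and 0.018 for Igfbp7, and centring on shared probes gave -0.068 and MAD scaling -0.049 for Igfbp6. Igfbp7 ran from -0.59 to 0.20 for siSelT-5 with each array left out. For both constructs Igfbp7 was -0.25 centred, -0.17 with MAD scaling and -0.18 to 0.21 with each array left out. Impact probe 2 gave 0.031 for siSelT-1. For the difference, centring on all values gave -0.28 for Igf1, -0.33 for Igf1r, -0.042 for Plat and -0.053 for Cars. Centring on shared probes gave 0.23 for Igfbp6 and 0.15 for Tspan32. MAD scaling gave 0.27 for Igfbp6, 0.0093 for Adamts1, 0.078 for Mrpl23 and 0.22 for Tspan32. The looser filter gave 0.37 for Tspan32. With each array left out the difference ran from -0.11 to 0.23 for Igf1, -0.15 to 0.16 for Igf1r, -0.15 to 0.11 for Igfbp6, -0.33 to 0.88 for Cars and -0.29 to 0.087 for Tspan32.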
